A study of Rattus norvegicus with 6 samples.

Results

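The genes described here are 7 genes of the Hippo pathway, namely Ctgf, Cyr61, Ankrd1, Amotl2, Lats2, Yap1 and Tead1, out of 17321 genes counted by RNA sequencing in fetal rat islets. They were listed by symbol with earlier results for the difference between high glucose and control known, so for them that difference is a description, and nothing is read from how many of them a test calls. All 7 symbols were present in the files, and all 7 passed the filter on low counts, which kept 12276 genes. By role, 5 of the 7 are target genes (Ctgf, Cyr61, Ankrd1, Amotl2 and Lats2), while Yap1 and Tead1 encode the coactivator and the DNA-binding factor that act on such targets, so the name "target genes" covers only part of the set.

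There were 6 libraries of islets from Sprague Dawley rat fetuses at gestational day 22, in 3 pairs. In each pair the library labelled high glucose came from fetuses of the uterine horn that was given a glucose infusion, started on gestational day 20 and run for 48 h at 4 mg/min. The library labelled control came from normoglycemic fetuses of the other horn of the same dam. All libraries share the rest of the procedure: 2 fetal pancreata were pooled, islets were freed with collagenase and picked by hand, and they recovered in RPMI (5 mM glucose) for 24 h before RNA extraction. The infused horn was the left one throughout, so horn side and glucose cannot be told apart. Sample titles and deposited alignment names give opposite horn letters for each of the 6 libraries. The treatment labels were followed here, and every sign would turn if the alignment names were right.

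The Hippo pathway is a kinase cascade that holds back growth. The kinases MST1 and MST2 activate LATS1 and LATS2, which phosphorylate the coactivators YAP and TAZ and keep them out of the nucleus, whereas unphosphorylated YAP and TAZ bind TEAD factors and switch on targets such as Ctgf and Cyr61. The pathway responds to cell contact, polarity and tension, and Amotl2 and Lats2 are targets that also restrain YAP. In the developing pancreas YAP is present in progenitor and duct cells and is lost as cells become endocrine, and it is also active in mesenchyme.

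The sequences before the transcription start sites are shown because TEAD factors recognise the letters GGAATG, and Ctgf and Cyr61 are the genes most often used to read out TEAD activity. RefSeq promoters of the GRCr8 build were matched for 4 of the 7 genes, and the 250 bases before each start site are printed 5′ to 3′ along the gene's strand. Capitals mark GGAATG or its reverse complement CATTCC.
Ctgf (chr1:22624615-22624864, minus strand): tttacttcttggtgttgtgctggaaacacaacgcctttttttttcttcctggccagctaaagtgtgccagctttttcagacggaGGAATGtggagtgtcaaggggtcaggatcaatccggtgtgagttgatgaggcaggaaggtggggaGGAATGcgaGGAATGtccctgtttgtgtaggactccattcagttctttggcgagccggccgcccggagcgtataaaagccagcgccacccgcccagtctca
Cyr61 (chr2:237225690-237225939, minus strand): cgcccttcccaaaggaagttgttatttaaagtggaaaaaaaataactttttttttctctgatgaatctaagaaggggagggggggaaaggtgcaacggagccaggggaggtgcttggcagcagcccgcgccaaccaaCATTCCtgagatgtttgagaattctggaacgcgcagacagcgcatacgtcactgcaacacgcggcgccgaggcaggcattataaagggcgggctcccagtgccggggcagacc
Amotl2 (chr8:112182376-112182625, plus strand): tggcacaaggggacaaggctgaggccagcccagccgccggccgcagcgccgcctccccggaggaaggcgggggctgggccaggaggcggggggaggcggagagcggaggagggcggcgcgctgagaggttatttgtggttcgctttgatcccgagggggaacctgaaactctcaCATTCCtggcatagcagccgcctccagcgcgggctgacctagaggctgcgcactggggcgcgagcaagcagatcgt
Yap1 (chr8:13451438-13451687, minus strand): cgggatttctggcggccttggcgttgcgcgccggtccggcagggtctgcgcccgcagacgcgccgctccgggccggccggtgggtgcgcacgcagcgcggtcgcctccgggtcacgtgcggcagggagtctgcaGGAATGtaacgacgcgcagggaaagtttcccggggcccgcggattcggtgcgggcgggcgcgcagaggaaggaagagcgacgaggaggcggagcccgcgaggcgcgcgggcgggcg

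Ctgf held 3 matches, with first bases at -166, -101 and -92 from the start site, all on the gene's own strand. Cyr61 held 1 match at -113 and Amotl2 1 match at -76, both on the opposite strand, and Yap1 held 1 match at -116 on its own strand. Of 33469 rat promoters of this length, 12.06% held at least 1 match on either strand, 0.902% at least 2 and 0.0807% at least 3. The AP-1 motif TGANTCA, searched on both strands, had 0 matches in these 4 windows and at least 1 match in 6.34% of all promoters. In lists of other pathway genes, 4 of 13 kinase core promoters (Sav1, Mob1b, Wwc2 and Rassf1), 3 of 16 junction and polarity promoters (Ajuba, Wtip and Ptpn14) and 1 of 10 promoters of other targets (Nuak2) held GGAATG, as did 0 of 5 coactivator and partner promoters and 0 of 1 in the CCN family. These matches describe the letters in the window and were not tested as binding sites.

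Levels of different genes were compared as RPKM, read counts scaled by exon length and library size. Ctgf and Cyr61, which encode secreted matricellular proteins of the CCN family, stood at the top. Ctgf measured 113 ± 81.7 RPKM (SD, n = 6 libraries) and Cyr61 76.4 ± 32.4. Yap1 followed with 41.7 ± 14.9 RPKM, then Amotl2 with 17.9 ± 6.71, Lats2 with 13.3 ± 5.79 and Tead1 with 12.5 ± 7.26. Ankrd1, an ankyrin repeat protein best known as a stretch-responsive protein of muscle, was lowest at 1.46 ± 1.24 RPKM. In the order of levels, Yap1 exceeded Amotl2 and Tead1 exceeded Ankrd1 in 6 of 6 libraries. The neighbours Ctgf and Cyr61, and Cyr61 and Yap1, kept their order in 5 of 6 libraries, and Amotl2 and Lats2 in 4 of 6. Lats2 exceeded Tead1 in only 2 of 6 libraries, so those neighbours did not differ beyond their spread.

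The other members of the CCN family were lower. Wisp1, a Wnt-induced relative of Ctgf, measured 13.6 ± 8.16 RPKM and Nov 6.78 ± 1.97, while Wisp2 measured 0.502 ± 0.162. Ctgf in its lowest library (40.8 RPKM) stood above the mean of Wisp1. Among the partners of YAP, Tead2 (58.6 ± 20.5 RPKM) and Tead3 (18.3 ± 2.57) were counted beside Tead1, and Wwtr1, which encodes TAZ, measured 28.9 ± 7.53 RPKM.

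Within each dam pair, CPM (counts scaled by library size and composition) were higher in the high glucose library for 5 of the 7 genes in all 3 pairs. These were Ctgf, Cyr61, Ankrd1, Lats2 and Tead1. Over all genes tested, 11.8% were higher in all 3 pairs and 11.2% lower. As the genes were listed with this difference known, nothing is read from that count. For 0 of the 7 genes did the 3 high glucose libraries lie wholly above or below the 3 control libraries, against 3.31% of all genes.

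Ctgf (rn6 chromosome 1, 21851658 to 21854773, 5 exons, minus strand) measured 156 CPM in control and 265 in high glucose for pair 1, 95.2 and 158 for pair 2, and 285 and 625 for pair 3. High glucose was thus 1.70-, 1.66- and 2.19-fold control, while the groups overlapped because the control library of pair 3 exceeded the high glucose libraries of pairs 1 and 2. The fitted log2 difference was 0.87 (SE 0.19), on counts of 1540 to 20082 per library.

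Cyr61 (chromosome 2, 251529354 to 251532312, 5 exons, minus strand) measured 98.6 and 130 CPM, 103 and 133 CPM, and 174 and 271 CPM in pairs 1 to 3 (control, then high glucose). The ratios were 1.32, 1.29 and 1.55, smaller than those of Ctgf in each pair. The fitted log2 difference was 0.47 (SE 0.18), and the control library of pair 3 again lay above the high glucose libraries of the other pairs.

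Ankrd1 (chromosome 1, 254726994 to 254735545, 9 exons, minus strand) had few reads: pair 1 held 20 counts in control and 53 in high glucose, pair 2 held 20 and 62, and pair 3 held 62 and 212. In CPM these were 0.579 and 1.67, 1.24 and 3.03, and 2.11 and 6.60. The ratios of 2.88, 2.45 and 3.12 were the largest of the 7 genes in each pair, and the fitted log2 difference was 1.49 (SE 0.43). The control library of pair 3 was above the high glucose library of pair 1, so the groups overlapped here as well.

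**Figure D1:**
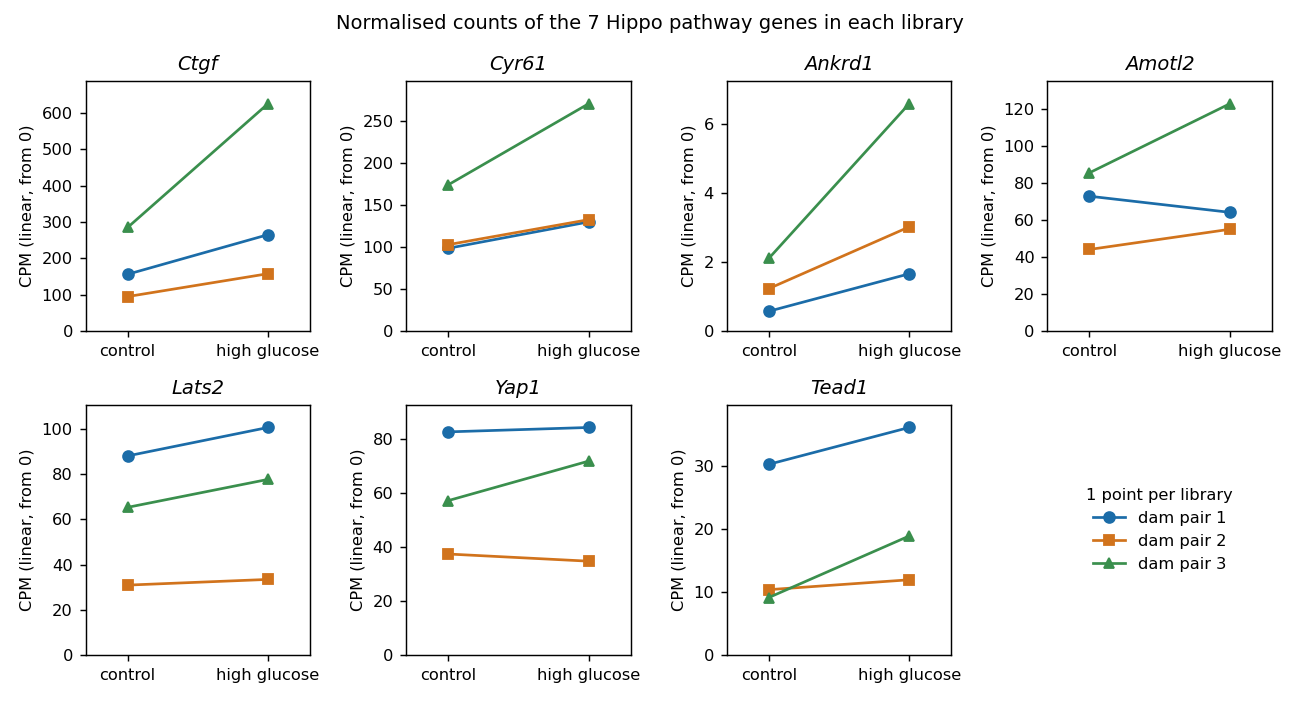
Normalised counts (CPM, linear axes from 0) of each of the 7 genes in the 6 libraries, with 1 point per library and a line joining the control and high glucose libraries of a dam. The high glucose point lies above its control in all 3 pairs for Ctgf, Cyr61, Ankrd1, Lats2 and Tead1, and for Lats2 the pairs lie far apart while the lines are nearly flat.

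The targets that feed back on YAP differed less. Amotl2 (chromosome 8, 111210811 to 111226212, 10 exons, plus strand), which encodes a junction protein of the angiomotin family that binds YAP, measured 72.8 and 64.1 CPM, 44.1 and 55.0 CPM, and 85.4 and 122.7 CPM in pairs 1 to 3. It was lower in high glucose in pair 1 and higher in the others, with a fitted log2 difference of 0.22 (SE 0.20). Lats2 (chromosome 15, 37943609 to 37983882, 7 exons, minus strand), the kinase that phosphorylates YAP, measured 88.1 and 101 CPM, 30.9 and 33.4 CPM, and 65.4 and 77.7 CPM in pairs 1 to 3. Its ratios of 1.14, 1.08 and 1.19 were all above 1 but small, with a fitted log2 difference of 0.19 (SE 0.18).

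The coactivator Yap1 (chromosome 8, 6135542 to 6203579, 10 exons, minus strand) measured 82.7 and 84.3 CPM, 37.4 and 34.8 CPM, and 57.2 and 71.9 CPM over the 3 pairs. Its within-pair log2 differences were 0.03, -0.11 and 0.33, and the fitted value of 0.08 (SE 0.18) was the smallest of the 7 genes. Tead1 (chromosome 1, 177495782 to 177706863, 13 exons, plus strand) measured 30.3 and 36.2 CPM, 10.4 and 11.96 CPM, and 9.14 and 18.9 CPM. Its ratio was 2.07 in pair 3 against 1.19 and 1.15 in the others, so the fitted log2 difference of 0.50 (SE 0.24) rested mostly on pair 3, and it was 0.23 without that pair.

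Read over the set, the 7 fitted log2 differences ran from 0.08 for Yap1 to 1.49 for Ankrd1, with a median of 0.47, beside a median of 0.00 over all genes tested. Their medians were 0.25, 0.32 and 0.64 in pairs 1 to 3, and the median of fitted values was 0.23 without pair 3. edgeR's quasi-likelihood test with dam as a block called 0 of the 7 genes at an adjusted p below 0.05, where it called 0.0163% of all genes. At an unadjusted p below 0.05 the same test held 3 of the 7 (Ctgf, Cyr61 and Ankrd1), where it held 4.82% of all genes, and DESeq2 called 1 of the 7 (Ctgf), where it called 0.863%. As the 7 genes were chosen with this contrast in view, these counts are no evidence about them.

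**Figure D2:**
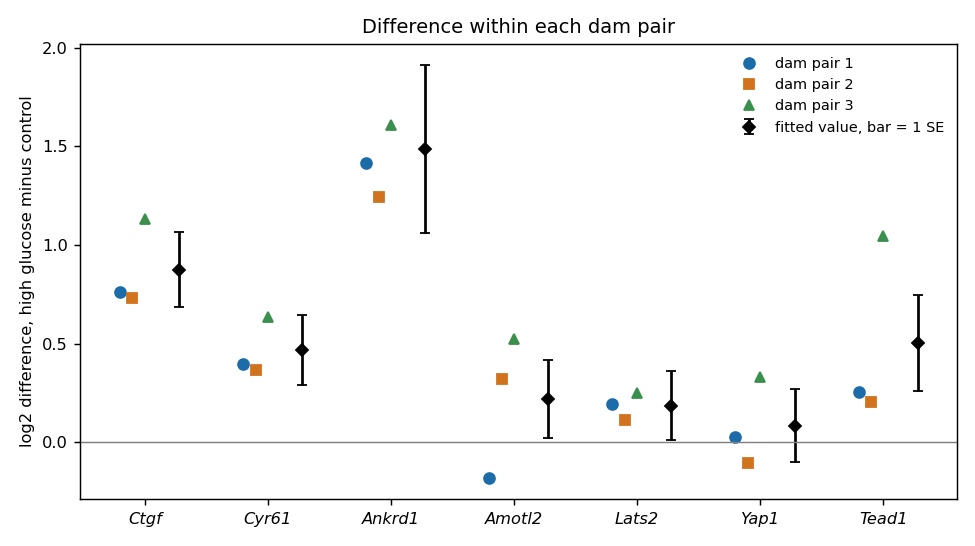
Log2 difference of high glucose minus control within each dam pair (coloured points, from log2 CPM) and the fitted value with 1 SE (black) for each of the 7 genes. Ankrd1 lies at 1.24 to 1.61 and Ctgf at 0.73 to 1.13 in the 3 pairs, whereas the points of Yap1 and Amotl2 fall on both sides of 0.

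Markers of other cells moved in the same pairs. Of the 10 listed duct markers 9 were counted, and their summed level was 2917 to 5793 CPM in control and 4347 to 8642 CPM in high glucose, a ratio of 1.49, 1.25 and 1.49 in pairs 1 to 3. Of these 9 markers 5 were higher in all 3 pairs (Krt18, Cftr, Spp1, Epcam and Muc1), none was at 0 in any library, and Spp1 and Krt8 were the most abundant. The part of duct cells in the higher Ctgf, Cyr61 and Ankrd1 values was not tested, and in bulk libraries more cells of a type and more RNA per cell cannot be told apart. Without Spp1, a choice made after seeing the data, the ratios of the other 8 markers summed were 1.05, 1.17 and 1.49. The median log2 difference of the 9 single markers was 1.20, 0.22 and 0.58 in pairs 1 to 3, so how the duct values stand beside those of the 7 genes changes with the way the list is summarised.

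The summed lists of other cells that can express these genes were not higher in all 3 pairs. The summed level of 10 mesenchyme markers was 20059 to 43513 CPM in control and 27485 to 37348 CPM in high glucose, with ratios of 1.37, 0.896 and 0.858. None was at 0, although Col1a2 had only 0.0314 to 0.586 CPM. Col1a1 and Col3a1 were the most abundant and weigh most in this sum. Of the 9 mesenchyme markers tested, 2 (Pdgfra and Fn1) were higher in all 3 pairs and 0 were lower in all 3. The median log2 difference of the 9 was 0.40, -0.12 and -0.20 in pairs 1 to 3. The part of mesenchyme in the values of the 7 genes was not tested. The summed level of 8 smooth muscle markers was 832 to 2639 CPM in control and 895 to 1429 CPM in high glucose, with ratios of 1.08, 0.746 and 0.541. The 9 endothelial markers had ratios of 0.986, 0.417 and 0.826, and the 8 immune cell markers 0.752, 0.764 and 0.435. The 3 counted mesothelial markers (Msln, Wt1 and Upk1b) had ratios of 2.14, 1.52 and 0.446. For the heart and skeletal muscle in which Ankrd1 is best known, Myh6, Myh7, Myl2 and Ckm were at 0 in at least 1 library, and the 8 markers summed to 13.2 to 46.9 CPM, mostly Tnnt2.

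Endocrine cells, which define the labelled tissue, were present: 7 counted beta cell markers, led by Ins1 and Ins2, summed to 4916 to 22740 CPM, and none was at 0. The ratio of this sum was 1.66, 0.797 and 0.216 in pairs 1 to 3, so pair 3, in which Ctgf, Cyr61 and Ankrd1 differed most, was also the pair with the lowest beta cell sum in high glucose. Acinar markers went the other way in that pair, with a ratio of 22.0 against 0.725 and 1.47 in the other pairs. Their sum in pair 3 was 30.8 CPM in control and 679 in high glucose. The control libraries of pairs 1 and 2 held 200 and 979 CPM, so the control of pair 3 was the lowest. The ratio of Ctgf was 1.70 and 1.66 in pairs 1 and 2, where the beta cell sum was higher in the first and lower in the second. Single beta cell markers did not all follow this sum. Iapp was lower in pair 1, and Iapp, Slc2a2 and Slc30a8 were higher in pair 2. The part of beta cells in the Ctgf values was not tested. The alpha cell list had ratios of 1.28, 1.69 and 0.245.

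**Figure D3:**
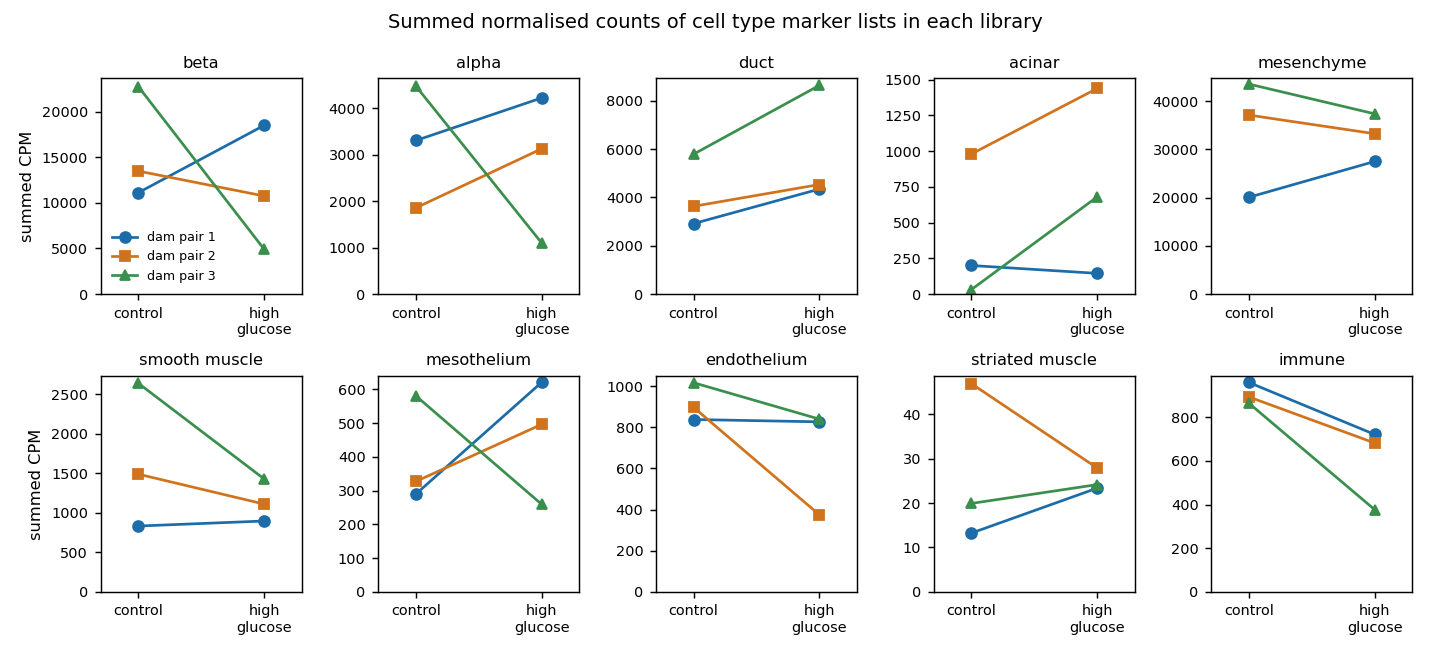
Summed normalised counts (CPM, linear axes from 0) of 10 marker lists in each library, joined by dam pair. The duct list is higher in high glucose in all 3 pairs (2917 to 5793 CPM in control, 4347 to 8642 in high glucose), the immune list is lower in all 3, and the beta cell list crosses between pairs.

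The dams themselves differed. This contrast is another than the one with which the genes were listed, but both tests come from the same fit and share its estimate of spread. The calls among dams are therefore not wholly independent of that choice of genes. edgeR's quasi-likelihood test for differences among the 3 dams called 6 of the 7 genes at an adjusted p below 0.05, where it called 22.8% of all genes tested. Whether digestion, culture or library preparation was done dam by dam is not given in the sources used here. The levels fell into a pair of patterns, with Yap1, Lats2 and Tead1 highest in pair 1 and Ctgf, Cyr61, Amotl2 and Ankrd1 highest in pair 3.

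Lats2 averaged 94.4 CPM in pair 1, 32.2 in pair 2 and 71.6 in pair 3, a 2.93-fold range between dams (edgeR quasi-likelihood adjusted p = 0.00494). Yap1 averaged 83.5, 36.1 and 64.5 CPM, a 2.31-fold range (edgeR adjusted p = 0.0136). Tead1 averaged 33.3, 11.2 and 14.0 CPM, a 2.96-fold range (edgeR adjusted p = 0.00929). For Lats2 and Yap1 the order of dams was the same in control and in high glucose libraries, and the distance between dams exceeded every within-pair difference: 1.55 between the extreme dams for Lats2 on the log2 scale, against a mean within-pair difference of 0.19.

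Ctgf averaged 211, 127 and 455 CPM in pairs 1 to 3 (a 3.44-fold range, edgeR adjusted p = 0.00342), and Cyr61 114, 118 and 222 CPM (1.92-fold, edgeR adjusted p = 0.0162). Amotl2 averaged 68.5, 49.5 and 104 CPM (2.08-fold, edgeR adjusted p = 0.0269). Ankrd1 averaged 1.122, 2.13 and 4.36 CPM (3.59-fold), with an edgeR adjusted p of 0.0511, and so did not pass. Between pairs 1 and 2 the members parted: Yap1, Lats2 and Tead1 were higher in pair 1 by 1.21 to 1.57 on the log2 scale, Cyr61 differed by -0.05, and Ankrd1, lower in pair 1, by -0.92. Without pair 2 edgeR's test called 0 of the 7 genes and 1.74% of all genes, with 5 of the 7 and 18.8% of all genes at an unadjusted p below 0.05. Without pair 3 it called Ctgf, Lats2, Yap1 and Tead1 (31.5% of all genes), and without pair 1 it called all but Ankrd1 and Tead1 (17.9% of all genes). Pair 2 had the lowest total counts, with 18077841 in control and 22643755 in high glucose. The libraries of the other pairs held 29885104 to 30993532. The part of depth in these calls was not tested.

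The differences among dams also varied with the counted exon length of the genes. Over all tested genes, the median log2 difference of pair 1 minus pair 2 was -0.44 for the 3248 genes with up to 1500 bases of counted exon, -0.01 for 1501 to 3000 bases, 0.30 for 3001 to 4500 bases and 0.60 for the 1402 genes over 4500 bases. Lats2 has 4958 bases of counted exon and Amotl2 4141, whereas Yap1 has 1471, Tead1 1563, Ankrd1 1742, Cyr61 1984 and Ctgf 2335 in this annotation. For pair 1 minus pair 2 the values were 1.55 for Lats2, 1.21 for Yap1 and 1.57 for Tead1. They are values of single genes, and the spread within each length class is not given here. The part of length in the differences among dams was not tested. For high glucose minus control the medians by length class were closer together, from -0.08 to 0.16, and Ctgf, Cyr61 and Ankrd1 belong to the class with a median of -0.01.

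**Figure D4:**
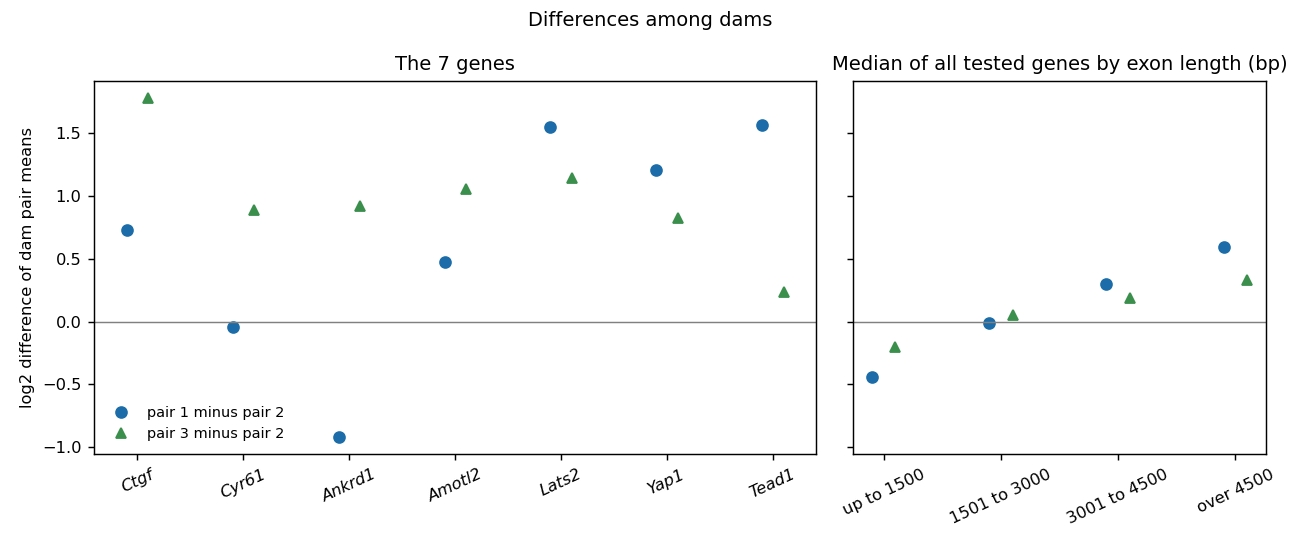
Left, log2 difference between dam pair means for the 7 genes (pair 1 minus pair 2 and pair 3 minus pair 2). Right, the median of the same difference over all tested genes in 4 classes of counted exon length, which climbs from -0.44 to 0.60 for pair 1 minus pair 2, while Lats2, Yap1 and Tead1 lie at 1.21 to 1.57.

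As a description of likeness, the log2 CPM of 11013 other genes with a mean count of at least 50 were compared with 3 of the members over the 6 libraries. The most like Ctgf were Epha1, Nid2 and Ptprz1 (Pearson r of 0.99, 0.99 and 0.99). The most like Cyr61 were Bicdl2, Snx24 and Nectin4 (0.99, 0.99 and 0.99), and the most like Ankrd1 were Wnt7a and Clu (0.99 and 0.98). Among the members themselves, Yap1 and Lats2 had an r of 0.99 and Ctgf and Amotl2 an r of 0.93, while Ankrd1 and Yap1 had an r of -0.15. The libraries come in pairs from 3 dams and differ in depth and composition, and no test was made of these values.

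The rest of the pathway was read from 5 lists of textbook members, 63 genes in all, of which 51 were counted and 49 tested. edgeR's quasi-likelihood test called 0 of 49 higher and 0 lower in high glucose over all genes, DESeq2 called 0, and 2 of 49 (Patj and F3) had an unadjusted p below 0.05 against 4.82% of all genes. The median of the 49 fitted log2 differences was 0.16, with 35 above 0 and 14 below, where 6222 of all genes tested were above 0 and 6054 below. Their median was 0.10 in pair 1, -0.10 in pair 2 and 0.37 in pair 3, and 8 were higher and 5 lower in all 3 pairs. By class of counted exon length, from shortest to longest, the 49 genes divided into 4, 18, 14 and 13 genes. Their medians by class were 0.06, 0.07, 0.17 and 0.24, beside -0.08, -0.01, 0.07 and 0.16 over all genes. The part of length in the lists' values was not tested. For differences among dams the test called 18 of 49 (36.7%), against 22.8% of all genes.

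The kinase core (15 tested genes) had a median log2 difference of 0.15, and 0 genes passed. Its genes with the highest RPKM were Map4k4, a kinase that acts on LATS beside MST (76.1 ± 24.7 RPKM, log2 difference 0.30), the scaffold Sav1 (44.0 ± 4.19, 0.07) and the LATS cofactor Mob1a (33.1 ± 4.06, 0.07). Rassf5, a binding partner of the MST kinases, was lower in all 3 pairs with a log2 difference of -0.41 (SE 0.25, edgeR adjusted p = 0.9996). Lats1, the paralog of Lats2, measured 107 and 127 CPM, 54.9 and 54.8 CPM, and 60.9 and 90.4 CPM in pairs 1 to 3. It differed among dams (edgeR adjusted p = 0.0189), with pair 1 highest, as for Lats2. Lats1 has 7087 bases of counted exon, and the median of pair 1 minus pair 2 over all genes of that length class was 0.60.

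The coactivator list (4 tested genes) had a median of 0.07 with 0 genes passing, from 0.22 for Tead2 and 0.04 for Wwtr1 to -0.09 for Vgll4, which competes with YAP for TEAD. Tead2 differed among dams (edgeR adjusted p = 0.0202) with its highest mean in pair 2 (175 CPM, against 82.8 in pair 1 and 117 in pair 3), whereas Tead1 was lowest there. Vgll2 had too few counts to be tested. For junction and polarity genes (16 tested) the median was 0.18, and 0 passed. Among them alpha-catenin Ctnna1 measured 136 ± 13.0 RPKM (log2 difference 0.17), the tight junction gene Tjp1 31.9 ± 12.4 (0.03) and the polarity gene Crb3 30.5 ± 4.40 (0.25). Patj, a scaffold of the Crumbs polarity complex, was higher in all 3 pairs with 37.0 and 38.4, 14.9 and 24.3, and 33.1 and 62.9 CPM. Its log2 difference was 0.56 (SE 0.23, edgeR adjusted p = 0.940).

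The other YAP and TEAD targets (11 tested genes) had a median of 0.16, and 0 passed, with 2 higher and 2 lower in all 3 pairs. The most abundant were the IGF-binding protein Igfbp3 (194 ± 80.7 RPKM, log2 difference -0.23), the secreted matrix protein Ccdc80 (100 ± 27.7, -0.01) and the stress gene Gadd45a (55.8 ± 8.87, 0.22). F3, the tissue factor that starts blood clotting, was higher in all 3 pairs, with 66.6 and 78.4, 35.7 and 56.1, and 82.1 and 108 CPM. Its log2 difference was 0.43 (SE 0.18, edgeR adjusted p = 0.987). The receptor kinase Axl and the ectonucleotidase Nt5e were the genes lower in all 3 pairs, with log2 differences of -0.20 and -0.35, and Myof, a membrane repair protein, was the other one higher in all 3, at 0.27. These last 3 were chosen after their values were seen. In the CCN family, Wisp1 had a log2 difference of 0.08, Nov -0.49 and Wisp2 -0.33, and 0 of 3 passed.

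**Figure D5:**
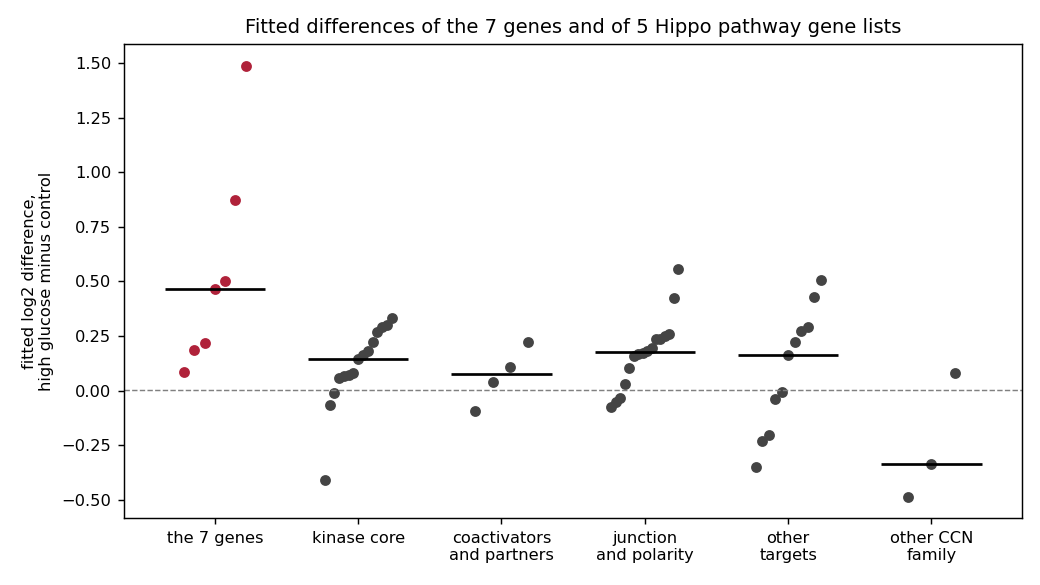
Fitted log2 difference of high glucose minus control for the 7 genes and for the tested genes of 5 other Hippo pathway lists, with 1 point per gene, a black bar at each median and a dashed line at the median of all genes. The 7 genes, listed with this contrast known, have a median of 0.47, and the other lists lie between -0.33 and 0.18.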

How the data were processed

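RNA sequencing counts from 6 libraries were used. Per the file headers, the authors counted read pairs per gene with featureCounts 1.5.1 (reverse strand, mapping quality of at least 10, UCSC refGene annotation of rn6), and the deposited values are raw counts. The exon length in bases beside each count is also the deposited value. Per the submitters' processing notes, STAR 2.5 aligned the reads. Total counts were 18077841 to 30993532, and every row named a gene.

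edgeR 4.0.16 (R 4.3.3) was used with TMM factors and filterByExpr. Its robust quasi-likelihood F-test took treatment and dam as terms, and a gene was called at a Benjamini-Hochberg adjusted p below 0.05. The filter kept genes holding 99.95% of counts. Differences within pairs use log2 CPM with a prior count of 2. The dam pairs come from the series design and the titles. The titles share a stem in pairs 1 and 2 but only a final digit in pair 3. Deviations from group means correlated at 0.474, 0.621 and 0.413 across genes within pairs 1 to 3. The procedure was tested on simulated data with 100 genes changed 2-fold and 100 changed 4-fold. For high glucose minus control it recovered 32% and 89% of them, and 6 of 127 calls were false. For differences among dams it recovered 23% and 83%, and 2 of 108 calls were false. The simulated counts took each gene's spread from the trend fitted over all genes, and for dams only pair 1 was changed. These rates therefore need not hold for the real data. DESeq2 1.42.0, RLE factors, no filter, no block and leaving out each pair were alternatives.

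Members and lists were chosen with earlier results of these data known. Named list genes are the 3 highest by RPKM in each list and the one with the largest difference among those with one direction in all 3 pairs, with called genes added. Lats1, Tead3, Axl, Nt5e and Myof are named outside this rule, as are Vgll2 and the genes named for a promoter match. Of 63 list symbols 51 were found, 1 of them by a RefSeq synonym (Inadl as Patj). One gene that the rule on likeness names is not reported here.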

Additional observations from a re-analysis of the deposited data

How the results depend on the processing

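The dam pairs are the design's own pairs. Without the replicate block, the test of high glucose against control called 0 genes in place of 2, and the members' median log2 difference was 0.43 in place of 0.47. The count was 18 with no low-count filter, 106 with DESeq2 and 18 to 55 without 1 pair, and the members' median was 0.23 to 0.52 without 1 pair. The other Hippo lists had 0 genes called under all of these settings, including the fit with no replicate block. Among dams, leaving out 1 pair gave 216 to 3878 called genes in place of 2795, 1 to 21 called list genes in place of 18, and 0 to 5 called members in place of 6, the lowest in each case without pair 2. Fewer samples remain in these fits. The fitted log2 difference stayed above 0 for each of the 7 genes under each alternative, except Yap1 without pair 3. The ranges were 0.75 to 0.96 for Ctgf, 0.38 to 0.52 for Cyr61, 1.40 to 1.58 for Ankrd1 and 0.15 to 0.22 for Lats2. They were 0.23 to 0.65 for Tead1, 0.067 to 0.42 for Amotl2 and -0.037 to 0.18 for Yap1. Each of the 7 genes was lowest without pair 3. Some list genes that did not pass changed sign, and the cause was not tested. Leaving out 1 pair gave -0.018 to 0.14 for Sav1, -0.11 to 0.19 for Mob1a, -0.098 to 0.27 for Wwtr1, -0.26 to 0.070 for Vgll4, -0.13 to 0.18 for Tjp1, -0.68 to 0.062 for Igfbp3, -0.49 to 0.29 for Ccdc80 and -0.19 to 0.24 for Wisp1. With no change of sign it gave 0.036 to 0.55 for Map4k4, 0.020 to 0.42 for Gadd45a, 0.081 to 0.40 for Tead2, 0.10 to 0.33 for Crb3, 0.37 to 0.81 for Patj and -0.87 to -0.24 for Nov. Ccdc80 was 0.0020 with RLE, 0.0011 with no filter and 0.0020 with DESeq2. Ankrd1 had 20 to 212 counts per library, which limits its precision.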
